A study of Mus musculus with 11 samples.

Results

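Expression of 10 genes was followed through the livers of mice that lack Nemo in hepatocytes: Ly6d, Mybl1, Sprr1a, Scd2, Igf2bp3, Golm1, Afp, Gpc3, Dlk1 and Cdh13. They are 10 of 19938 genes that carry a probe set with a single gene symbol on the array, and each of them has exactly 1 such probe set. The choice was made on measured values, namely the difference between Nemo knockout and wild-type liver: some genes have one of the largest differences on the array, and others are known for expression in foetal liver and again in liver tumours (oncofetal genes). Cdh13 has neither property, and why it was included is not given. That difference is therefore given below as a description, without a test.

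Nemo, encoded by Ikbkg, is the regulatory subunit of the kinase complex that activates NF-κB, and hepatocytes without it die, are replaced by division and later give rise to tumours. Oncofetal genes such as Afp and Gpc3 are active in the foetal liver, are shut off after birth and are used as markers of hepatocellular carcinoma. TRAIL is a death ligand of the TNF superfamily, and TNFR1 is the main death-inducing receptor for TNF.

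The 4 genotypes were profiled as whole liver of male C57/BL6 mice of 8 to 9 weeks on standard chow: wild type (WT, n = 3), NemoΔhepa (Nemo KO, n = 3), NemoΔhepa/TRAIL-/- (TRAIL dKO, n = 2) and NemoΔhepa/TNFR1-/- (TNFR1 dKO, n = 3). The Nemo gene was flanked by loxP sites and was lost in hepatocytes. The line that carried the recombinase is not named in the labels. TRAIL-/- and TNFR1-/- are constitutive knockouts per the labels, and a group lacking TRAIL or TNFR1 alone was not analysed here. Nothing in the labels states how the animals relate to each other, so p-values measure the spread between these samples. Levels are log2 values, on which a difference of 1 is a doubling, and they are compared between arrays for 1 gene at a time, never between genes.

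Array numbers followed the genotypes in order, from 1 to 3 for WT to 10 to 12 for TNFR1 dKO, so genotype and array order cannot be told apart. A code in the array names, whose meaning is not given, was common to WT and Nemo KO and different in each double knockout. The probe set of Ikbkg read 8.60 to 8.73 in WT and 8.34 to 8.56 in Nemo KO, and was lower still in both double knockouts (8.22 to 8.28 and 8.12 to 8.31). Tnfsf10, which encodes TRAIL, was at 6.11 to 6.23 in TRAIL dKO, at 6.51 to 7.0 in WT, at 6.26 to 6.86 in Nemo KO and at 6.49 to 6.78 in TNFR1 dKO. Tnfrsf1a, which encodes TNFR1, ranged from 9.95 to 10.19 in TNFR1 dKO, from 9.93 to 10.09 in WT, from 10.19 to 10.41 in Nemo KO and from 10.39 to 10.43 in TRAIL dKO, so that TNFR1 dKO was the lowest of the Nemo-deficient groups and overlapped with WT. Where these probes lie relative to the altered parts of the genes was not examined, so they do not settle the genotypes. WT replicate 3 stood apart by its pancreatic acinar genes: the mean log2 level of 10 markers was 11.57 there, against 5.83 and 5.98 in the other WT arrays and 5.58 to 5.77 in the 8 Nemo-deficient arrays. Every call given below for the 10 genes against WT was kept with this array left out.

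Because the genes differ in their start regions, the promoter window of 3 is shown, each read from RefSeq on GRCm38.p6 as the 250 bases before the annotated start. Windows were found for 6 of the 10 genes. The 3 printed are the gene with the largest difference that has a window (Sprr1a), the classical foetal liver marker (Afp) and a Golgi gene that was higher in every Nemo-deficient array than in WT (Golm1). Capitals mark matches to 5 motifs, each searched on both strands. The AP-1 motif was spelled TGANTCA and the TATA box was spelled TATAAA. For the E-box the letters were CACGTG. For the half-site of the liver factor HNF1 they were GTTAAT, and the κB consensus was also searched. Matches of different motifs did not overlap in these windows.
Sprr1a, chr3:92485882-92486131, minus strand: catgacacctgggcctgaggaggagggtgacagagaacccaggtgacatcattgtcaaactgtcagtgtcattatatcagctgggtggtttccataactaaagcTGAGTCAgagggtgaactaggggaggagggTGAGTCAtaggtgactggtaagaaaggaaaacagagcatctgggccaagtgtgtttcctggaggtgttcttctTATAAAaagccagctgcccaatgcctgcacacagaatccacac
Afp, chr5:90490464-90490713, plus strand: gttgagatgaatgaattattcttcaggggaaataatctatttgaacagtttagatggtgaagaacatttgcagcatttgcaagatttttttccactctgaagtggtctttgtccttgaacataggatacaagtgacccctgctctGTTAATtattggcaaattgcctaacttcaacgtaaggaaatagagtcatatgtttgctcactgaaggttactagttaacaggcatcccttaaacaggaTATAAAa
Golm1, chr13:59675785-59676034, minus strand: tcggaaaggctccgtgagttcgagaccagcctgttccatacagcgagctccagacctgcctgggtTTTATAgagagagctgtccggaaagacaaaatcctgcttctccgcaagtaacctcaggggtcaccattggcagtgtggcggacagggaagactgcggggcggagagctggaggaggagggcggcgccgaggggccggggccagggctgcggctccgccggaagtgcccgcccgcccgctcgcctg
The Sprr1a window holds 2 AP-1 matches, 146 to 140 and 116 to 110 bases before the start, and a TATA box 43 to 38 bases before it. The Afp window holds the HNF1 half-site 105 to 100 bases and a TATA box 7 to 2 bases before the annotated start, and the Golm1 window holds only a TATA box on the opposite strand, 185 to 180 bases before it. Of the windows not printed, that of Igf2bp3 has 1 E-box match and those of Gpc3 and Dlk1 have no match to any of the 5. Among 32851 windows of the same length on the table, 6.75% hold the AP-1 letters, 12.4% the TATA box, 6.02% the E-box, 6.43% the HNF1 half-site and 7.25% the κB consensus. A match describes letters and does not show that a factor binds.

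Of the 10 genes, 6 lay higher in every Nemo-deficient array than in every WT array: Ly6d, Mybl1, Sprr1a, Scd2, Igf2bp3 and Golm1. Of all probe sets, 7.79% were separated in this way, and since the choice used these WT and Nemo KO arrays nothing is read from the share among the 10. Afp was slightly higher in Nemo KO, and Gpc3, Dlk1 and Cdh13 overlapped between Nemo KO and WT. Among the genes known as oncofetal, Igf2bp3 and Golm1 thus stood clear of WT, Afp differed slightly in Nemo KO, and Gpc3 and Dlk1 did not stand apart. The median difference between Nemo KO and WT over the 10 genes was 1.51, beside −0.054 over all 35556 probe sets. In that comparison 6.08% of all probe sets were called higher and 3.21% lower at an adjusted p below 0.05, and since the genes were chosen on it nothing is read from their own share. In whole liver, a change in the number of cells of a type and a change in RNA per cell cannot be told apart.

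**Figure D1:**
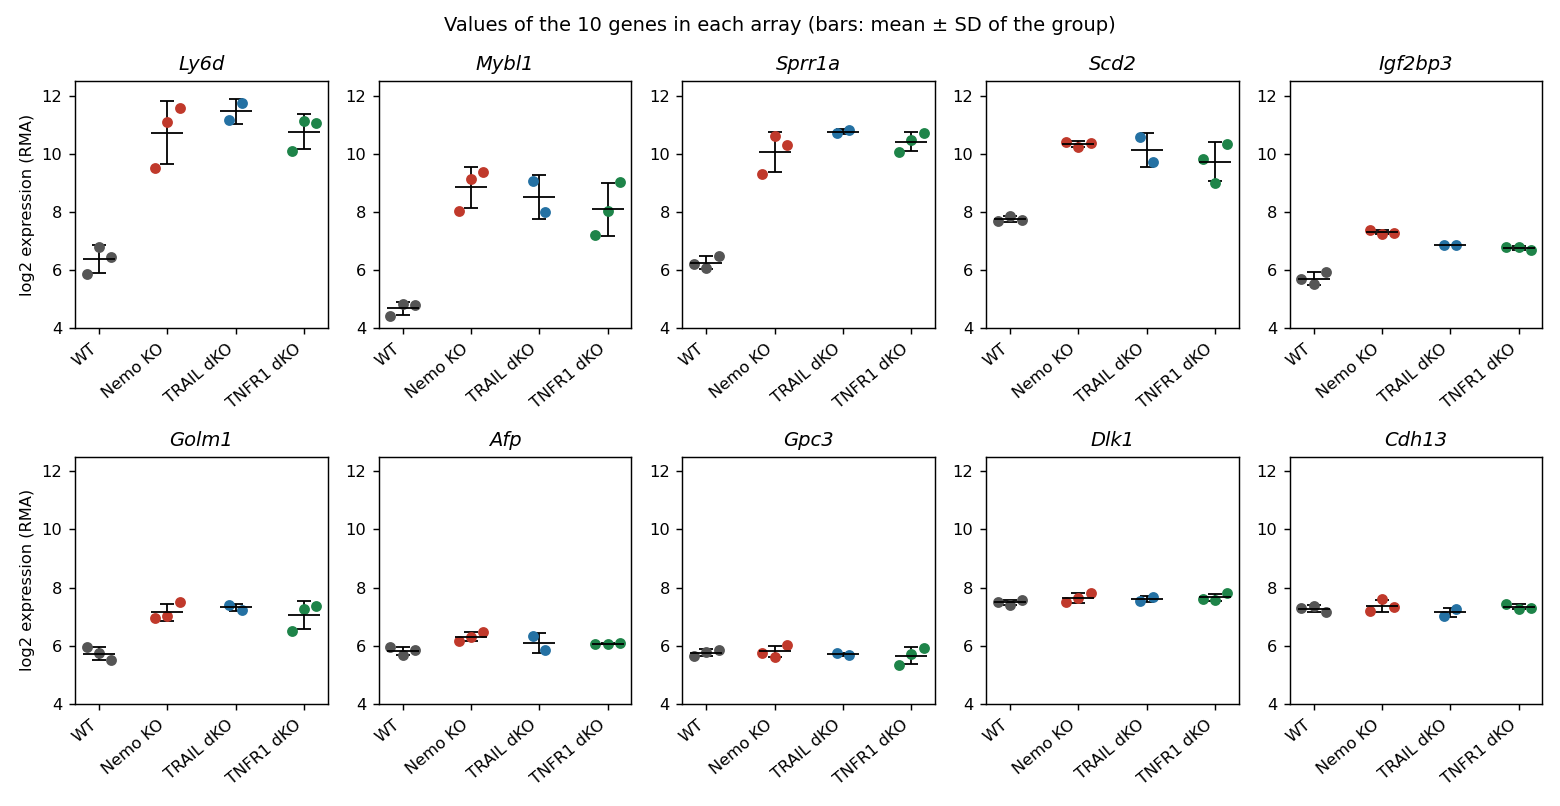
Log2 expression of the 10 genes in each of the 11 arrays, 1 panel per gene, with genotype on the horizontal axis and bars for the group mean ± SD. Ly6d, Mybl1, Sprr1a, Scd2, Igf2bp3 and Golm1 lie above WT in every Nemo-deficient array, and Igf2bp3 lies lower in both double knockouts than in Nemo KO. That difference of Igf2bp3 from Nemo KO was not called in either double knockout.

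Ly6d encodes a small GPI-anchored surface protein of the LY6 family, known from squamous epithelium and lymphoid progenitors. Its log2 level was 5.86, 6.81 and 6.46 in WT and 9.50, 11.09 and 11.58 in Nemo KO. It was 11.17 and 11.76 in TRAIL dKO and 10.08, 11.13 and 11.06 in TNFR1 dKO. All 8 Nemo-deficient arrays were far above WT and the 3 Nemo-deficient groups lay in 1 range, with the first Nemo KO array the lowest of the 8. The mean difference between Nemo KO and WT, 4.35 ± 0.51 (SE; 20.3-fold), ranked 1 of 19938 genes. Ly6d also rose in TRAIL dKO against WT, by 5.09 ± 0.57 (34.0-fold, limma adjusted p = 0.00138), and in TNFR1 dKO against WT, by 4.38 ± 0.51 (20.8-fold, adjusted p = 0.00118).

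Sprr1a encodes a small proline-rich protein that is cross-linked into the cornified envelope of squamous epithelium and is also induced in injured tissue. Its levels were 6.2, 6.07 and 6.49 in WT and 9.30, 10.61 and 10.29 in Nemo KO. In TRAIL dKO it was at 10.70 and 10.83, and in TNFR1 dKO at 10.05, 10.46 and 10.71. The groups with Nemo loss were again clear of WT, and both TRAIL dKO arrays were above all 3 Nemo KO arrays by a small margin. The share of all probe sets with that second separation was not counted. The difference between Nemo KO and WT was 3.81 ± 0.30 (14.1-fold; rank 4). Sprr1a rose by 4.51 ± 0.34 in TRAIL dKO (adjusted p = 0.000383) and by 4.15 ± 0.30 in TNFR1 dKO (adjusted p = 0.000161).

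The relatives of Ly6d and Sprr1a were counted in the same fit, in which 6.08% of all probe sets were called higher in Nemo KO and 3.21% lower. Of 16 other LY6 and uPAR family genes measured, 3 passed the test as higher in Nemo KO and 1 as lower (1 to 3 and 0 to 1 with 1 array left out). Ly6e, a widely expressed interferon-inducible member, rose by 0.88 ± 0.08 (adjusted p = 0.000445). Lynx1, a modulator of nicotinic receptors, rose by 0.50 ± 0.13 (adjusted p = 0.0475) and Cd59a, an inhibitor of complement, fell by 0.50 ± 0.13 (adjusted p = 0.0409), and these calls were kept in only 3 and 4 of the 11 fits with 1 array left out. Of 15 other small proline-rich and cornified envelope genes, only Ppl, which encodes the desmosomal linker periplakin, rose in Nemo KO, by 1.77 ± 0.19 (adjusted p = 0.000901), and it alone rose in TRAIL dKO (1.78 ± 0.22) and TNFR1 dKO (1.63 ± 0.19). Sprr1b, the closest relative of Sprr1a by name, differed by 0.00 ± 0.17 between Nemo KO and WT. Of 10 squamous epithelium markers none was called higher in any Nemo-deficient group, and Krt6a, a keratin of activated epidermis, was called lower in both double knockouts (−0.36 ± 0.07 and −0.25 ± 0.07; the second call was kept in 0 of 11 fits with 1 array left out). Their mean level was 5.35 to 5.44 in WT arrays and 5.28 to 5.38 in the others.

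Mybl1 encodes A-Myb, a transcription factor of the MYB family that acts in dividing germ cells and B cells. Its levels were 4.42, 4.84 and 4.81 in WT and 8.04, 9.15 and 9.36 in Nemo KO. They were 9.05 and 7.99 in TRAIL dKO and 7.21, 8.04 and 9.04 in TNFR1 dKO. No Nemo-deficient array came near WT, but arrays of 1 group differed from each other by more than a doubling. The difference between Nemo KO and WT was 4.16 ± 0.49 (17.9-fold; rank 2). The gene rose by 3.84 ± 0.54 in TRAIL dKO (14.3-fold, adjusted p = 0.00369) and by 3.41 ± 0.49 in TNFR1 dKO (10.6-fold, adjusted p = 0.00280).

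Neither of the other MYB genes was called in any comparison: Myb differed by −0.01 ± 0.07 and Mybl2, which encodes the cell cycle regulator B-Myb, by −0.10 ± 0.07 between Nemo KO and WT. Cell division genes did change, with 22 of 24 higher in Nemo KO, 21 in TRAIL dKO, 23 in TNFR1 dKO and none lower. Their median differences were 1.61, 1.66 and 1.77. Over all probe sets, 6.08%, 4.91% and 5.83% were called higher in these groups. Ccna2 and Ccnb2, which encode mitotic cyclins, rose by 3.22 ± 0.36 and 3.15 ± 0.29 in Nemo KO, and Plk1, a mitotic kinase, by 2.84 ± 0.29. Without TRAIL dKO replicate 1, which leaves that group a single array, the count there dropped to 8. Whether the level of Mybl1 follows from the share of dividing cells was not tested.

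Scd2 encodes a stearoyl-CoA desaturase, which makes monounsaturated fatty acids, and it is the form of the brain and of the foetal and neonatal liver, while Scd1 is the main form of the adult liver. Scd2 was at 7.68, 7.87 and 7.73 in WT and at 10.42, 10.23 and 10.38 in Nemo KO. In TRAIL dKO the levels were 10.56 and 9.72, and in TNFR1 dKO 9.81, 9.01 and 10.34. Nemo KO arrays were tightly grouped, the double knockout arrays ranged from just above that level to below it, and none reached the WT range. The difference between Nemo KO and WT was 2.58 ± 0.30 (6.0-fold; rank 19). Scd2 rose by 2.38 ± 0.34 in TRAIL dKO (adjusted p = 0.00382) and by 1.96 ± 0.30 in TNFR1 dKO (adjusted p = 0.00403).

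Scd1 differed from WT by 0.01 ± 0.07 in Nemo KO, 0.14 ± 0.08 in TRAIL dKO and 0.04 ± 0.07 in TNFR1 dKO, and Scd3 and Scd4 were not called either. Among 14 other desaturase and elongase genes and lipogenic genes, 2 were higher and none lower in Nemo KO, and 3 were higher and 1 lower in each double knockout (2 to 4 and 2 to 5 higher with 1 array left out). Of all probe sets, 6.08%, 4.91% and 5.83% were called higher and 3.21%, 2.64% and 3.35% lower in Nemo KO, TRAIL dKO and TNFR1 dKO. Elovl7, an elongase of saturated very long chain fatty acids, rose by 1.0 ± 0.13 in Nemo KO (adjusted p = 0.00166), 1.34 ± 0.14 in TRAIL dKO and 1.11 ± 0.13 in TNFR1 dKO. Fads3, of the fatty acid desaturase cluster, rose by 0.81 ± 0.10, 0.78 ± 0.11 and 0.59 ± 0.10. Elovl3, an elongase that responds to sex and the day cycle in liver, fell by 2.68 ± 0.55 in TRAIL dKO (adjusted p = 0.0177) and fell by 2.67 ± 0.49 in TNFR1 dKO (adjusted p = 0.00930), and its difference in Nemo KO was −1.12 ± 0.49 (adjusted p = 0.195). The TRAIL dKO call was lost without WT replicate 3 or TRAIL dKO replicate 2, where its adjusted p reached 0.0641.

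Igf2bp3 encodes an RNA-binding protein of the foetus that binds the Igf2 message, is silent in most adult tissues and returns in many tumours. Its levels were 5.68, 5.51 and 5.95 in WT and 7.39, 7.24 and 7.29 in Nemo KO. It was at 6.87 and 6.87 in TRAIL dKO and at 6.80, 6.80 and 6.69 in TNFR1 dKO. The arrays fell into 3 levels that did not overlap, with WT lowest, the 5 double knockout arrays between, and Nemo KO highest. How many of all probe sets fall into such levels was not counted, and the choice of the genes used the WT and Nemo KO arrays. The difference between Nemo KO and WT was 1.59 ± 0.10 (3.02-fold; rank 138). Igf2bp3 rose by 1.16 ± 0.11 in TRAIL dKO (2.23-fold, adjusted p = 0.000901) and by 1.05 ± 0.10 in TNFR1 dKO (2.07-fold, adjusted p = 0.000597).

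The IGF2 axis was measured beside it. Of 6 other IGF2 mRNA-binding and IGF2 axis genes measured, only Igf1r, the receptor for IGF1 and IGF2, was called, with a rise of 0.51 ± 0.08 in Nemo KO (adjusted p = 0.00359), 0.48 ± 0.09 in TRAIL dKO and 0.45 ± 0.08 in TNFR1 dKO, beside 6.08%, 4.91% and 5.83% of all probe sets called higher. Without either TRAIL dKO array the call in that group was lost (adjusted p up to 0.0657). Igf2bp1, the nearest relative, differed by −0.13 ± 0.09 in Nemo KO, the foetal growth factor Igf2 by 0.07 ± 0.16, and Lin28b, an oncofetal regulator of let-7, by −0.17 ± 0.07.

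Golm1 encodes GP73, a Golgi membrane protein that is low in normal hepatocytes and high in liver disease and carcinoma. Its levels were 5.95, 5.74 and 5.51 in WT and 6.95, 7.03 and 7.50 in Nemo KO. They were 7.41 and 7.23 in TRAIL dKO and 6.50, 7.27 and 7.38 in TNFR1 dKO. Every Nemo-deficient array was above WT, the first TNFR1 dKO array by the least. The difference between Nemo KO and WT was 1.43 ± 0.23 (2.69-fold; rank 194). Golm1 rose by 1.59 ± 0.26 in TRAIL dKO (3.01-fold, adjusted p = 0.00661) and by 1.32 ± 0.23 in TNFR1 dKO (2.49-fold, adjusted p = 0.00751). Without TRAIL dKO replicate 1 the first of these was 1.5 with an adjusted p of 0.0663. The related Golm2 rose by 0.57 ± 0.15 in Nemo KO (adjusted p = 0.0472, kept in 3 of 11 fits with 1 array left out), and Golim4, another Golgi protein, differed by 0.04 ± 0.08.

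Afp encodes alpha-fetoprotein, the albumin-like plasma protein of the foetus. Its levels were 5.96, 5.70 and 5.85 in WT and 6.17, 6.31 and 6.48 in Nemo KO. It was at 6.33 and 5.85 in TRAIL dKO and at 6.07, 6.08 and 6.09 in TNFR1 dKO. Nemo KO and TNFR1 dKO did not overlap with WT, whereas 1 of the TRAIL dKO arrays lay within the WT range. The share of all probe sets for which a single group is separated from WT was not counted, so nothing is read from this. The difference between Nemo KO and WT was 0.49 ± 0.13 (1.40-fold; rank 1477), with no test. Differences of the double knockouts from WT did not pass the test, at 0.26 (95% interval −0.06 to 0.58, adjusted p = 0.347) for TRAIL dKO and 0.25 (−0.04 to 0.53, adjusted p = 0.294) for TNFR1 dKO.

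The 2 measured neighbours of Afp in the albumin gene cluster were not called in any comparison, with differences between Nemo KO and WT of −0.01 ± 0.06 for Alb and −0.41 ± 0.14 for Afm, the afamin gene. Zhx2 and Zbtb20, the repressors that silence Afp after birth, differed by −0.16 ± 0.08 and 0.10 ± 0.11 in Nemo KO and were not called. Of 13 regulators of Afp and foetal liver genes, none was higher, and 4 were lower in Nemo KO and 2 in each double knockout. Over all probe sets, 3.21%, 2.64% and 3.35% were called lower in Nemo KO, TRAIL dKO and TNFR1 dKO. Cebpa, a factor of the mature hepatocyte, fell by 0.67 ± 0.15 (adjusted p = 0.0239), and the pioneer factors Foxa1 and Foxa2 fell by 0.62 ± 0.15 (adjusted p = 0.0284) and 0.61 ± 0.14 (adjusted p = 0.0211). These 3 calls were kept in 7, 6 and 6 of the 11 fits with 1 array left out. The counts of lower regulators ranged from 1 to 4 in Nemo KO and from 0 to 4 in each double knockout, and without WT replicate 3 they were 2, 0 and 0.

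Gpc3, Dlk1 and Cdh13 showed the smallest differences. Gpc3, a heparan sulphate proteoglycan of the cell surface and a stain for hepatocellular carcinoma, was at 5.64, 5.8 and 5.86 in WT, at 5.76, 5.63 and 6.03 in Nemo KO, at 5.75 and 5.67 in TRAIL dKO and at 5.34, 5.71 and 5.92 in TNFR1 dKO. Dlk1, a surface marker of foetal hepatoblasts, was at 7.52, 7.40 and 7.58 in WT, at 7.50, 7.63 and 7.83 in Nemo KO, at 7.53 and 7.67 in TRAIL dKO and at 7.60, 7.59 and 7.80 in TNFR1 dKO. Cdh13, a GPI-anchored cadherin that binds adiponectin, was at 7.30, 7.37 and 7.16 in WT, at 7.19, 7.60 and 7.33 in Nemo KO, at 7.04 and 7.26 in TRAIL dKO and at 7.45, 7.28 and 7.31 in TNFR1 dKO. Nemo KO overlapped with WT in all 3 genes, and only the TNFR1 dKO arrays of Dlk1 lay just above WT. No share over all probe sets was counted for such a separation of a single group.

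The differences between Nemo KO and WT were 0.04 ± 0.15 for Gpc3 (rank 6332), 0.15 ± 0.10 for Dlk1 (rank 3835) and 0.10 ± 0.11 for Cdh13 (rank 4779). None of the 3 was called in a double knockout against WT. The intervals left room for only small changes in array signal. For Gpc3 they were −0.43 to 0.31 in TRAIL dKO and −0.44 to 0.22 in TNFR1 dKO, at a signal below the median of all probe sets. They were −0.15 to 0.35 and −0.06 to 0.39 for Dlk1, and −0.41 to 0.16 and −0.18 to 0.33 for Cdh13. Among the other glypicans, Gpc6 rose by 1.09 ± 0.13 in Nemo KO (adjusted p = 0.00139) and Gpc4 fell by 0.36 ± 0.07 (adjusted p = 0.00862). Gpc1 rose by 0.80 ± 0.19 in TRAIL dKO (adjusted p = 0.0322) and by 0.81 ± 0.17 in TNFR1 dKO (adjusted p = 0.0166). Those calls of Gpc1 were kept in 4 and 7 of the 11 fits with 1 array left out. Gpc6 and Gpc4 were also called in the same directions in both double knockouts, and in TRAIL dKO both calls were lost without its replicate 1 (adjusted p up to 0.126 and 0.102).

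Of 11 other Dlk1 and Notch axis genes, 3 rose in Nemo KO, 1 in TRAIL dKO and 2 in TNFR1 dKO, with none lower (1 to 3, 0 to 2 and 0 to 2 with 1 array left out). Of all probe sets, 6.08%, 4.91% and 5.83% were called higher in these groups. Hey1, a Notch target, rose by 0.59 ± 0.10 in Nemo KO (adjusted p = 0.00751) and the ligand gene Jag1 by 0.62 ± 0.14 (adjusted p = 0.0232, kept in 7 of 11). Meg3, the maternally expressed non-coding RNA of the imprinted Dlk1 locus, rose by 1.45 ± 0.37 (adjusted p = 0.0396), a call kept in 3 of the 11 fits with 1 array left out. Of 7 other cadherins, only Cdh11, a mesenchymal cadherin, was called in Nemo KO (0.42 ± 0.11, adjusted p = 0.0392), also kept in 3 of 11.

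**Figure D2:**
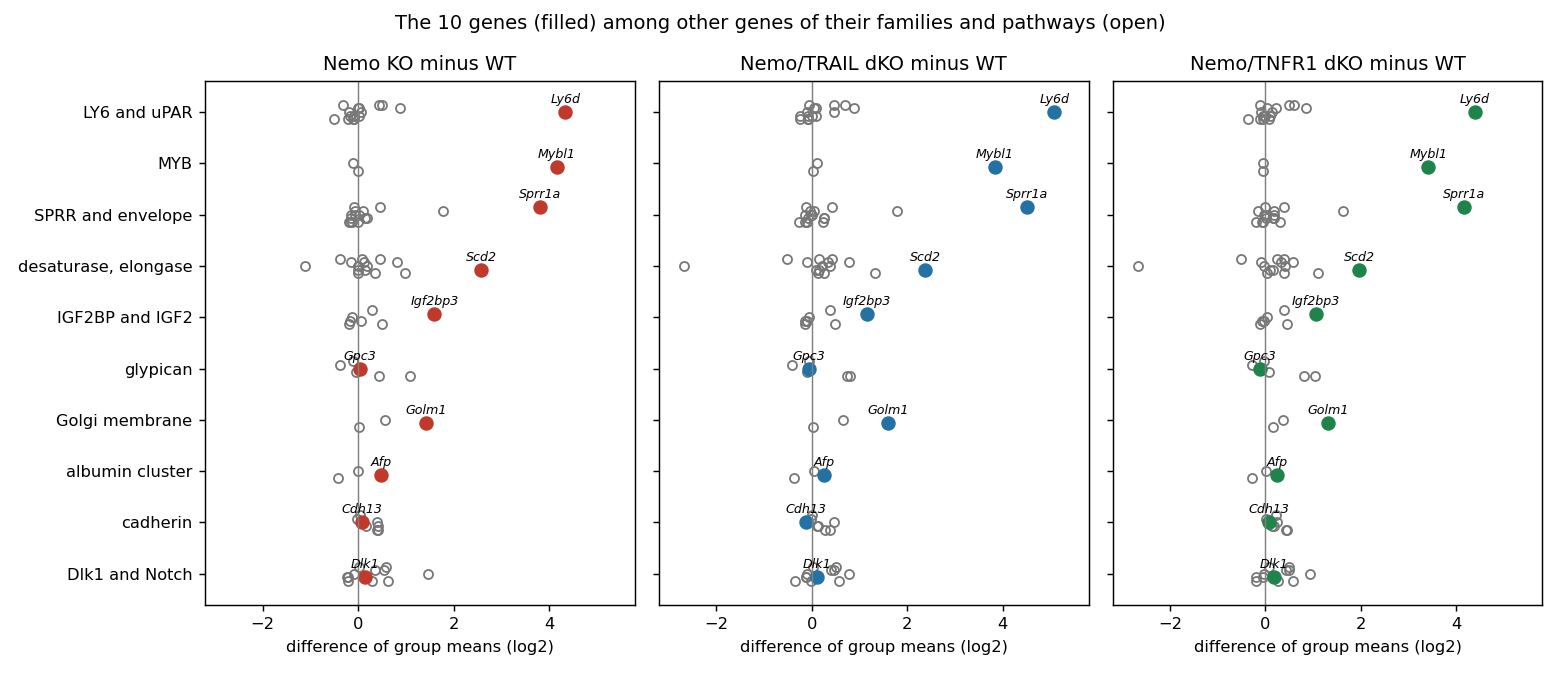
Differences of group means from WT (log2, horizontal axis) for the 10 genes, filled and named, and for the other measured genes of their families and pathways, open, with 1 panel per Nemo-deficient genotype. Ly6d, Mybl1, Sprr1a, Scd2, Igf2bp3, Golm1 and Afp lie to the right of the open circles of their rows. Gpc3, Dlk1 and Cdh13 do not. The choice of the genes used the difference between Nemo KO and WT, so nothing is read from their place in that panel.

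Across the 10 genes, 6 rose and none fell in TRAIL dKO against WT, beside 4.91% of all probe sets called higher and 2.64% called lower. The same 6 genes rose and none fell in TNFR1 dKO against WT, beside 5.83% and 3.35% of all probe sets. The median differences of the 10 were 1.37 and 1.18, and those of all probe sets −0.045 and −0.039. Both comparisons use the WT arrays on which the genes were chosen, and they share those arrays with each other, so only the double knockout arrays are independent of the choice.

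The double knockouts were then set against Nemo KO. Here the added loss of TRAIL or TNFR1 cannot be told apart from array order or from the code in the array names. None of the 10 passed the adjusted threshold in either comparison. In TRAIL dKO against Nemo KO, 0.00562% of all probe sets passed it and 4.04% had an unadjusted p below 0.05, and 1 of the 10 genes was among the latter. In TNFR1 dKO against Nemo KO the shares were 0.0337% and 6.86%, again with 1 gene of the 10. That gene was Igf2bp3 both times. Both comparisons share the Nemo KO arrays, which the choice of the genes used.

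Against Nemo KO, Igf2bp3 differed by −0.44 ± 0.11 in TRAIL dKO (95% interval −0.69 to −0.18, limma adjusted p = 1) and by −0.55 ± 0.10 in TNFR1 dKO (−0.78 to −0.32, limma adjusted p = 0.290), and every double knockout array lay below every Nemo KO array. Neither difference is a call, and the share of all probe sets separated in this way was not counted. For TNFR1 dKO the adjusted p ranged from 0.0788 to 0.556 over all alternative settings and left-out arrays. The other wide or one-sided differences were Sprr1a, 0.70 higher in TRAIL dKO (−0.06 to 1.45), Scd2, with −0.62 in TNFR1 dKO (−1.31 to 0.06), and Mybl1, with −0.75 there (−1.84 to 0.34). Ly6d differed by 0.74 in TRAIL dKO (−0.54 to 2.02) and by 0.03 in TNFR1 dKO (−1.11 to 1.18). These intervals do not show that the levels were equal.

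For TNFR1 dKO against TRAIL dKO, the group means used no array of the comparison that chose the genes. The spread was estimated from all groups of the fit, including the WT and Nemo KO arrays that the choice used. The p-values and intervals of TNFR1 dKO against TRAIL dKO are therefore not independent of the choice. None of the 10 passed the adjusted threshold and none had an unadjusted p below 0.05, beside 0.0478% and 5.03% of all probe sets. The largest estimate was Ly6d, with −0.71 (−1.99 to 0.58), followed by Mybl1 and Scd2, both with −0.42 (−1.64 to 0.80 and −1.19 to 0.34). For the genes with the least spread the intervals were narrow: Igf2bp3 −0.11 (−0.37 to 0.15), Dlk1 0.07 (−0.18 to 0.32), Afp −0.01 (−0.33 to 0.31) and Cdh13 0.20 (−0.09 to 0.48). The intervals of Ly6d and Mybl1 extend beyond a doubling, so with 2 and 3 arrays a change of that size could have been missed.

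**Figure D3:**
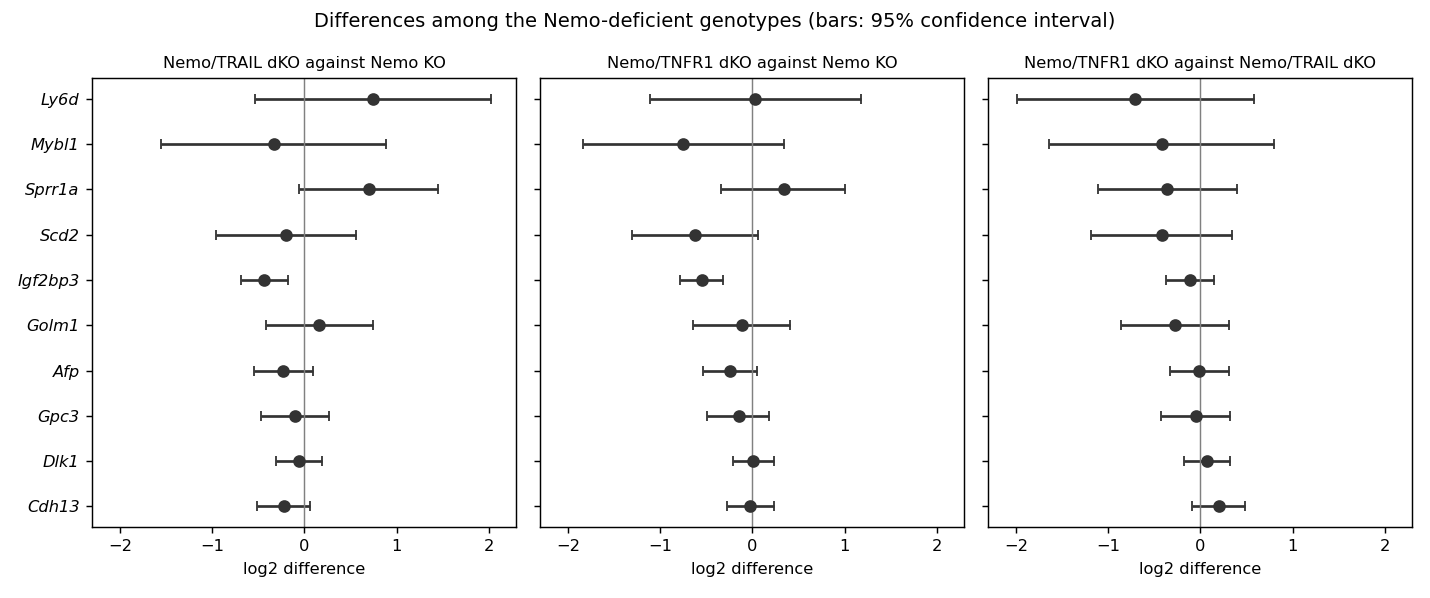
Log2 differences of the 10 genes among the 3 Nemo-deficient genotypes, with bars for the 95% confidence interval and a line at 0. The intervals of Igf2bp3 lie below 0 in both comparisons with Nemo KO, from −0.69 to −0.18 and from −0.78 to −0.32, and every interval of the third panel crosses 0. The intervals are not adjusted for the number of probe sets, and neither Igf2bp3 difference passed the adjusted threshold.

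In Nemo KO, TRAIL dKO and TNFR1 dKO, 6.08%, 4.91% and 5.83% of all probe sets were called higher and 3.21%, 2.64% and 3.35% lower. Of 19 other foetal liver and liver tumour genes, 5 rose and none fell in each Nemo-deficient group against WT, with medians of 0.21, −0.01 and 0.05. Leaving out 1 array moved these counts between 2 and 6 in Nemo KO, 1 and 6 in TRAIL dKO and 2 and 5 in TNFR1 dKO. Abcb1a, a drug efflux transporter, rose by 0.79 ± 0.12 in Nemo KO (adjusted p = 0.00394), 0.89 ± 0.14 in TRAIL dKO and 1.0 ± 0.12 in TNFR1 dKO. Hk2, which encodes a hexokinase, rose by 0.56 ± 0.11 (adjusted p = 0.0108), 0.66 ± 0.12 and 0.55 ± 0.11. The last 2 calls were lost without TRAIL dKO replicate 1, which leaves that group a single array, and without TNFR1 dKO replicate 3 (adjusted p = 0.0501). Tff3, a mucosal trefoil peptide, rose by 0.99 ± 0.26 in Nemo KO (adjusted p = 0.0417), a call kept in 2 of the 11 fits with 1 array left out. Epcam rose by 1.03 ± 0.24 in TRAIL dKO (adjusted p = 0.0327), and Prom1 by 0.78 ± 0.20 in TNFR1 dKO (adjusted p = 0.0423). In Nemo KO their differences were 0.79 ± 0.22 and 0.73 ± 0.20 and were not called. Of 16 YAP and TEAD target genes, 6, 4 and 5 were higher and 1 was lower in each of the 3 groups (3 to 6, 1 to 4 and 3 to 6 higher with 1 array left out). Among those higher in Nemo KO were the receptor kinase gene Axl (1.22 ± 0.11 in Nemo KO, adjusted p = 0.000449), the matricellular Ccn2 (1.62 ± 0.33, adjusted p = 0.0144, or 0.0547 without Nemo KO replicate 3) and the stress gene Gadd45b (0.90 ± 0.24, adjusted p = 0.0479, kept in 2 of 11).

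Whole liver holds several cell types, and markers of some of them moved beside the 6 raised genes. The counts below stand beside 6.08%, 4.91% and 5.83% of all probe sets called higher in Nemo KO, TRAIL dKO and TNFR1 dKO. Called lower were 3.21%, 2.64% and 3.35%. The mean of 9 hepatocyte markers was 13.24 to 13.30 in all 11 arrays, with none called. Whether signals this high, such as 13.86 for Alb in WT, can show a change was not tested. A constant share of hepatocytes is therefore not read from this mean. Macrophage markers were higher for 8, 7 and 8 of 10 genes in Nemo KO, TRAIL dKO and TNFR1 dKO, with means of 8.08 to 8.15 in WT arrays and 9.07 to 9.40 in Nemo KO arrays. Stellate cell markers were higher for 6, 5 and 7 of 10 genes, with means of 8.85 to 8.92 in WT and 9.56 to 9.84 in Nemo KO. Cholangiocyte and progenitor markers averaged 5.94 to 6.22 in WT and 6.44 to 6.56 in Nemo KO, with 0, 1 and 1 of 7 called higher. T and NK cell markers were called higher for 1, 1 and 3 of 7 genes, with means of 5.50 to 5.59 in WT, 5.63 to 5.85 in Nemo KO, 5.75 to 5.8 in TRAIL dKO and 5.81 to 6.14 in TNFR1 dKO. Endothelial markers averaged 9.01 to 9.02 in WT and 9.10 to 9.24 in Nemo-deficient arrays, with 1, 2 and 1 of 8 called higher and 0, 1 and 0 lower. The 3 erythroid markers averaged 7.13 to 7.28 in WT and 6.65 to 7.05 in Nemo-deficient arrays, with 1, 0 and 1 called lower. With 1 array left out, the T and NK cell counts ranged over 0 to 2, 0 to 1 and 2 to 3, and the endothelial counts of higher genes over 0 to 2, 0 to 2 and 1 to 1. Neutrophil markers averaged 4.94 to 5.11 in WT and 4.92 to 5.13 in Nemo-deficient arrays, and B and plasma cell markers 5.91 to 6.15 and 5.89 to 6.18, so both overlapped. The part of these cells in the level of any of the 10 genes was not tested, and an origin of their RNA in hepatocytes is not shown by whole-liver arrays. Without TRAIL dKO replicate 1, the counts in TRAIL dKO were 4 for macrophages and 2 for stellate cells, and without its replicate 2 the latter was 3.

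**Figure D4:**
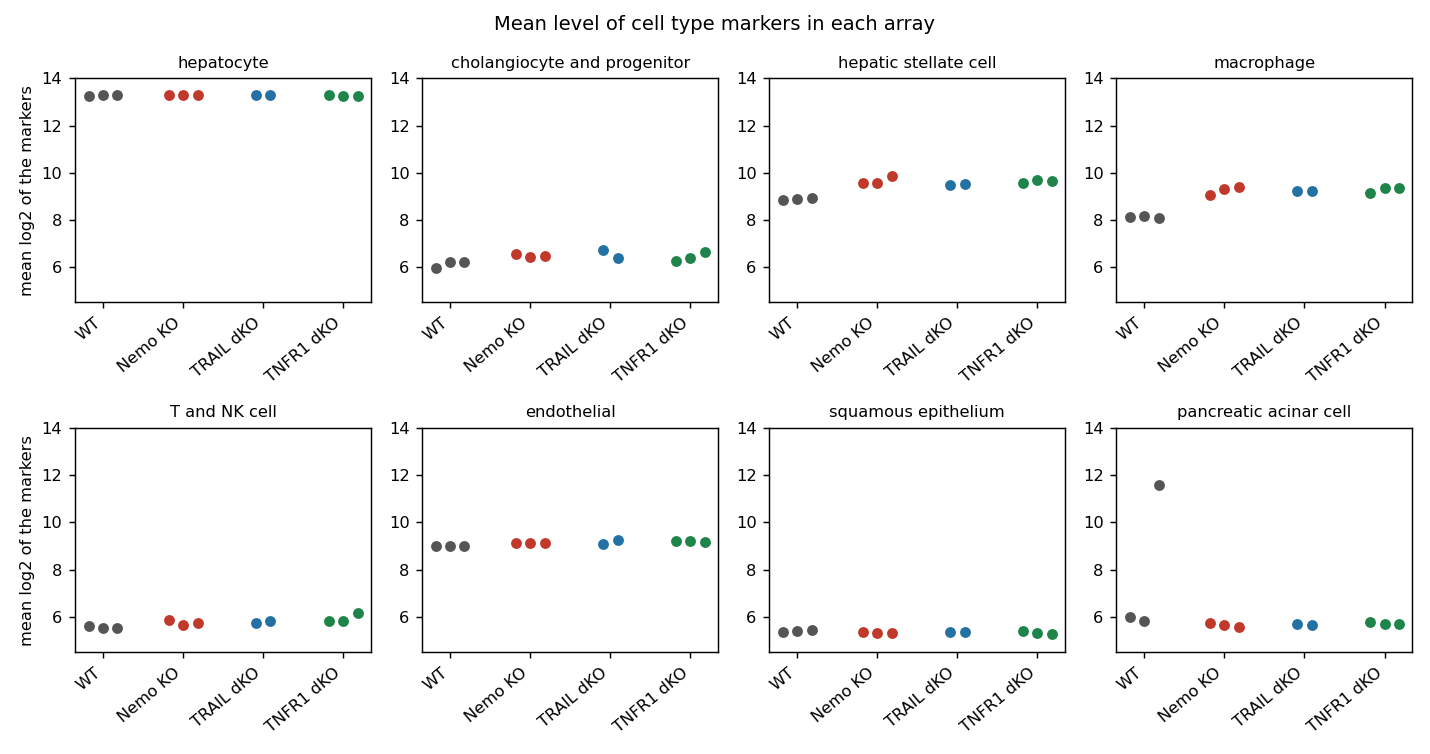
Mean log2 level of cell type markers in each array, 1 panel per cell type, with genotype on the horizontal axis and 1 point per array. Hepatocyte markers stay at 13.24 to 13.30, macrophage and stellate cell markers are higher in all Nemo-deficient arrays, and pancreatic acinar markers stand at 11.57 in WT replicate 3.

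The genes whose pattern came nearest to each of the 10 were found by the root mean square difference of the 11 log2 values after the WT mean was subtracted, over 18603 candidate genes. The values were not scaled, so this distance depends on the size of the difference from WT, which the choice of the genes used. A shared origin or regulation is not read from it. Sprr1a was nearest to Mmp12, the macrophage metalloelastase (0.420), and to D17H6S56E-5 (0.482). Mybl1 was nearest to D17H6S56E-5 (0.568) and Gpnmb, a transmembrane glycoprotein of macrophages (0.646), and Ly6d to D17H6S56E-5 (0.776) and Mmp12 (0.893). These 3 genes are themselves among the strongest differences between Nemo KO and WT outside the 10, with 3.92 ± 0.39 for D17H6S56E-5, 3.38 ± 0.25 for Gpnmb and 3.37 ± 0.22 for Mmp12. No gene came within 0.25 of Ly6d, Mybl1, Sprr1a or Scd2, whose nearest were Ntrk2, a neurotrophin receptor gene (0.336), and Mtmr11 (0.392).

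Igf2bp3 had 25 genes within 0.25, led by the citrate carrier gene Slc13a5 (0.183) and the inositol phosphatase gene Inpp5j (0.188). Golm1 had 42, led by Mpeg1, which encodes the pore-forming protein perforin-2 (0.131), and Clec12a, a myeloid lectin receptor gene (0.141). The counts for the other 4, which hardly changed, were 2098 for Afp, 9988 for Dlk1, 10306 for Gpc3 and 12149 for Cdh13. Their nearest genes were Frmd8 and Lrrc59 for Afp (0.1 and 0.103), Lins1 and Spsb4 for Gpc3 (0.0998 and 0.102), Usp11 and Itga2 for Dlk1 (0.0555 and 0.0613) and Kansl2 and Ldlrad4 for Cdh13 (0.0798 and 0.0813). Among the 10 themselves, Cdh13 and Dlk1 were most alike (0.186), and Igf2bp3 and Golm1 were the nearest pair of the 6 raised genes (0.399).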

How the data were processed

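RNA from whole liver was hybridised to 11 Affymetrix mouse gene arrays, 1 per sample, from 100 ng of total RNA with an integrity number above 8.0, per the labels' protocols. The deposited values are log2 expression per probe set, made by the authors with RMA per the submitters' processing notes. A version of it and a genome build are not given in the sources used here. For gene names, the platform annotation gave 1 symbol to 21789 of 35556 probe sets, several to 1621 and none to 12146. Precision is limited by the number of arrays.

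The 10 genes, the gene lists and the marker lists were chosen with earlier results of these data known. With R 4.3.3 and limma 3.58.1, 1 mean per genotype was fitted to all 35556 probe sets in all 11 arrays (7 residual degrees of freedom), with no filter on low values, so all 10 genes were tested. Adjusted p-values are Benjamini-Hochberg values over all probe sets within a comparison, with a threshold of 0.05, "rose" and "fell" mean a call, and intervals are 95% confidence intervals. Counts for lists leave out the 10 genes. The fit was tested on simulated data.

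Named genes are the 10, the 3 targeted genes, up to 3 called genes per list with the largest difference between Nemo KO and WT, all of the small families, the 2 nearest patterns per gene and the strongest genes outside the 10. Epcam and Prom1 are named besides, each called only in a double knockout. Alternatives changed the moderation, normalization, filter, probe sets, samples, array weights, replicate block and arrays left out.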

Additional observations from a re-analysis of the deposited data

How the results depend on the processing

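The 12 calls of single genes in the double knockouts against WT kept their direction and their side of the threshold in 251 of 252 alternative fits. The exception was Golm1 in TRAIL dKO against WT without TRAIL dKO replicate 1 (1.5, adjusted p = 0.0663; 1.48 to 1.70 over left-out arrays), which leaves that group a single array assumed to vary like the others. Counts of called genes over left-out arrays were 5 to 6 in TRAIL dKO and 6 to 6 in TNFR1 dKO against WT, and 0 in the other 3 comparisons. The median difference between Nemo KO and WT was 1.43 to 1.56 over left-out arrays and moved to 2.09 with probe sets below the median signal left out, because Afp and Gpc3 fall below that filter and 8 genes remain.

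Replicate numbers did not pair the samples: the deviations of 15 same-numbered pairs correlated from −0.12 to 0.04. With the replicate block the counts of called genes stayed at 6, 6, 0, 0 and 0 and the median at 1.51. Averaging all probe sets of a gene changed nothing by construction, since each gene has 1.

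Differences that changed sign were all uncalled, and the cause was not tested. Gpc3 was 0.01 with array weights in TNFR1 dKO against TRAIL dKO and 0.04 with the replicate block in TRAIL dKO against WT, and Dlk1 was 0.01 with the block in TRAIL dKO against Nemo KO. Over left-out arrays, TNFR1 dKO against Nemo KO ranged from −0.58 to 0.46 for Ly6d, −0.04 to 0.61 for Sprr1a, −0.06 to 0.10 for Dlk1, −0.12 to 0.09 for Cdh13, −0.28 to 0.16 for Golm1 and −0.28 to 0.01 for Gpc3. TRAIL dKO against Nemo KO ranged from −0.86 to 0.20 for Mybl1, −0.62 to 0.22 for Scd2, −0.47 to 0.01 for Afp, −0.19 to 0.01 for Gpc3 and −0.13 to 0.03 for Dlk1. TNFR1 dKO against TRAIL dKO ranged from −0.95 to 0.11 for Mybl1, −0.25 to 0.23 for Afp and −0.18 to 0.10 for Gpc3, and Gpc3 in TNFR1 dKO against WT from −0.24 to 0.05.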

Other observations

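The first array of Nemo KO held the lowest value of its group for Ly6d, Mybl1, Sprr1a, Golm1, Afp, Dlk1 and Cdh13, and the first array of TNFR1 dKO the lowest for Ly6d, Mybl1, Sprr1a, Golm1, Afp and Gpc3. Afp was nearly tied in TNFR1 dKO, at 6.07, 6.08 and 6.09. The share of all probe sets with their lowest value in these arrays was not counted. In Nemo KO, Ly6d stood 3.13 above the WT mean in the first array against 4.71 and 5.2 in the others, and Mybl1 3.35 against 4.46 and 4.67. Scd2, Igf2bp3 and Gpc3 did not share this order in Nemo KO: Scd2 stood 2.66, 2.47 and 2.62 above the WT mean in the Nemo KO arrays, and Igf2bp3 1.68, 1.53 and 1.58.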
